A study of Mus musculus with 8 samples.

Results

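Translation initiation and elongation factors are the proteins that load the ribosome onto an mRNA, find its start codon and move it along the message. The 39 genes described here encode 12 subunits of the initiation factor eIF3, 10 factors of the mRNA cap, its helicase and the poly(A) tail, 9 factors of start codon recognition, eIF2 and subunit joining, and 8 elongation and related factors. They were examined for R-loops in young and aged mouse haematopoietic stem cells. A peak belonged to a gene when its summit lay within the GRCm38 bounds of the gene extended by 1 kb. By this rule 32 of the 40207 deposited peaks lay in these genes, 10 from young and 22 from aged cells. All 39 genes were found in the gene table.

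R-loops are DNA:RNA hybrids in which a transcript stays paired with the template strand while the other DNA strand is displaced. They form most readily behind RNA polymerase at strongly transcribed genes, near promoters rich in G and C, and where the RNA-like strand holds more G than C. Many translation factor genes are housekeeping genes that are transcribed at a high rate in most cells. The rate of protein synthesis in blood stem cells is kept low compared with that of their progeny.

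The cells were bone marrow cells sorted as lineage-negative, Sca1-positive, cKit-positive and CD34-negative, from mice labelled young or aged. The labels state neither the age in months nor the strain or sex of the mice, give no treatment, and describe no pooling of animals. Each age had 2 libraries immunoprecipitated with the S9.6 antibody against DNA:RNA hybrids and 2 input libraries, 8 in all, made by a strand-specific protocol (ssDRIP-seq). The deposited lists combine the replicates of an age, with 1 list for each age and strand, so there is no spread between replicates and no test between ages. The young lists held 24009 and the aged lists 16198 peaks. Reads at each summit were recovered from the deposited fold and p-value, and the genome background so recovered was 0.823 to 0.825 reads in young and 0.689 to 0.690 in aged lists, a ratio of 1.20. Depth in total reads is unknown. Intervals below are at 95% and cover counting error only. In a bulk preparation, hybrids in more cells and more hybrids per cell cannot be told apart. A peak is no RNA level, so the labelled cell type could not be checked by expression. Peaks lay in 4 of 8 stem cell marker genes in each age. In young they lay in 1 of 6 B cell, 0 of 6 myeloid, 0 of 6 erythroid and 0 of 5 T cell markers. In aged these counts were 1 of 6, 1 of 6, 1 of 6 and 0 of 5. The stem cell markers were long, with a median of 44.2 kb, and no other marker set had a median above 11.6 kb. Of protein-coding genes of 30 kb or more, 50.5% carried a young and 41.8% an aged peak. Under 10 kb the shares were 5.19% and 4.98%, and at all lengths 23.8% and 20.0%. The marker counts were not compared at equal gene length, so they do not check the cell type.

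The promoters of the 6 genes whose start lay nearest to a peak summit are shown, because the position of peaks relative to the start is 1 of the results described here. The sequences are RefSeq's for GRCm38.p6, from 250 bases before to 50 bases after the annotated start, on the strand of the gene. Capitals mark the first 50 transcribed bases. The genes are Eif5a (chr11:69920898-69921197, minus strand), Eif4a1 (chr11:69672374-69672673, minus), Eif4b (chr15:102073523-102073822, plus), Eef1a1 (chr9:78481675-78481974, minus), Eif4e (chr3:138527018-138527317, plus) and Eif5 (chr12:111537851-111538150, plus). Where a gene has several annotated starts, the start nearest to the summit is shown.
Eif5a: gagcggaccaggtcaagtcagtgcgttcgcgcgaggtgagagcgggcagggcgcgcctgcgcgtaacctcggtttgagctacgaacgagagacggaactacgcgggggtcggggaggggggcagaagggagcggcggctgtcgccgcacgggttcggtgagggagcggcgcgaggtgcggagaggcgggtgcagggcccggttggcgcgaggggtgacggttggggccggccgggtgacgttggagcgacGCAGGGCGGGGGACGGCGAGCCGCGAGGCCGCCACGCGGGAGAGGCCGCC
Eif4a1: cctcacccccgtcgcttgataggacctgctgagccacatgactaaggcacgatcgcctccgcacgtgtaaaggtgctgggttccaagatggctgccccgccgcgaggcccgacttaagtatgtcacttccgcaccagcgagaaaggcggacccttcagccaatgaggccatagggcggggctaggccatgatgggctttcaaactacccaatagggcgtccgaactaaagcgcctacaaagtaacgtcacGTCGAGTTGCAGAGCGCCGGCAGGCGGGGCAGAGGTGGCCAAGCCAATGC
Eif4b: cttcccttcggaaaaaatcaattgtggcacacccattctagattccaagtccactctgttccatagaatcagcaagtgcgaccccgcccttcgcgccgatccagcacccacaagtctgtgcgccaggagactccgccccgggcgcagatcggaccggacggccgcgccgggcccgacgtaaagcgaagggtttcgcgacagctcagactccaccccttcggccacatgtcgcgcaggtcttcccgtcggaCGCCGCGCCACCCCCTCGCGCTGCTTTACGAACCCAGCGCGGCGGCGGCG
Eef1a1: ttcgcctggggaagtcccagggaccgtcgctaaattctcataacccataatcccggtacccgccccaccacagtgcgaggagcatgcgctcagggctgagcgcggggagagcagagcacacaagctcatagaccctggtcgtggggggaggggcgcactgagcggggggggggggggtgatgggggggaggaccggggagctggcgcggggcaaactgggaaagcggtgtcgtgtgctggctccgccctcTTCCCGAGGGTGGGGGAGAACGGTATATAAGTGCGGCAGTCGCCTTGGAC
Eif4e: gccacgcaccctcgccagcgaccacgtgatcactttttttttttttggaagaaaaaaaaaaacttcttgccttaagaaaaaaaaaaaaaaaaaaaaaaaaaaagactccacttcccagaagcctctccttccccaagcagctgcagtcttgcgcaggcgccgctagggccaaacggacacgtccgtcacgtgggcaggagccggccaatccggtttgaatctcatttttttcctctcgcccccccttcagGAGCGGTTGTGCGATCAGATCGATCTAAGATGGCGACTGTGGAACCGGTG
Eif5: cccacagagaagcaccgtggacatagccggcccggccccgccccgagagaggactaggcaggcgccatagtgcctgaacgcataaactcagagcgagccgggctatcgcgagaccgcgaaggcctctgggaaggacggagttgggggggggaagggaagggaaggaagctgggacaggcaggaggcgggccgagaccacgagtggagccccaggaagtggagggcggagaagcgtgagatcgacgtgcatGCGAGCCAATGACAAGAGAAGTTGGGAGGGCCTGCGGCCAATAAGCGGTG

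In the capital stretch G outnumbered C at 5 of these 6 starts, beside 58.3% of 17492 protein-coding genes at their farthest upstream start. Eef1a1 and Eif5 each had 20 G against 10 C. Eif4e had 19 against 9, Eif4a1 22 against 13 and Eif5a 26 against 17. Eif4b was the exception with 16 G and 24 C. The GC skew, the difference of G and C over their sum, was thus 0.33 at Eef1a1 and Eif5, 0.36 at Eif4e, 0.26 at Eif4a1, 0.21 at Eif5a and -0.20 at Eif4b. Over the full windows shown the skew was 0.34 at Eif5a, 0.26 at Eif5 and 0.23 at Eef1a1. It was -0.01 at Eif4a1, -0.13 at Eif4e and -0.19 at Eif4b. The peaks themselves lay downstream of these windows, except at Eif5a, where the aged peak chr11:69920930-69921114 lay inside the window shown.

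The first question was how many translation factor genes carried an R-loop peak in each age. In aged cells 16 of the 39 genes did, 41.0% (Wilson interval 27.1 to 56.6), where 20.0% of 21887 protein-coding genes did. In young cells 8 did, 20.5% (10.8 to 35.5), beside 23.8% of protein-coding genes. Peaks in both ages lay in 5 genes, beside 10.6% of protein-coding genes. An aged peak only was found in 11 genes, or 28.2% (16.5 to 43.8), beside 9.43%, and a young peak only in 3 genes, or 7.69% (2.65 to 20.3), beside 13.3%. The young share thus lay close to that of all genes and the aged share above it. No test stands behind a peak seen in a single age. At a −log10 q of at least 5 the counts were 5 of the 39 genes in aged, beside 5.39% of protein-coding genes, and 1 in young, beside 4.51%. With peaks over the plain genome background alone they were 9 of the 39 in aged, beside 13.5% of protein-coding genes, and 3 in young, beside 15.8%.

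Long genes collect more peaks, and the factor genes were shorter, with a median of 11.8 kb against 17.2 kb. Among the 16 factor genes under 10 kb, 6 carried an aged peak, beside 4.98% of protein-coding genes of that length, and 3 a young one, beside 5.19%. From 10 to 30 kb, 6 of 17 carried an aged peak, beside 13.1% of protein-coding genes of that length, and 1 a young one, beside 15.7%. At 30 kb or more, 4 of 6 carried an aged peak, beside 41.8% of such genes, and 4 a young one, beside 50.5%. Per Mb of extended gene there were 22.9 aged peaks (exact Poisson interval 14.3 to 34.6), against 6.29 (6.14 to 6.44) in all protein-coding genes. Young peaks numbered 10.4 per Mb (4.98 to 19.1) against 8.90 (8.72 to 9.08).

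**Figure D1:**
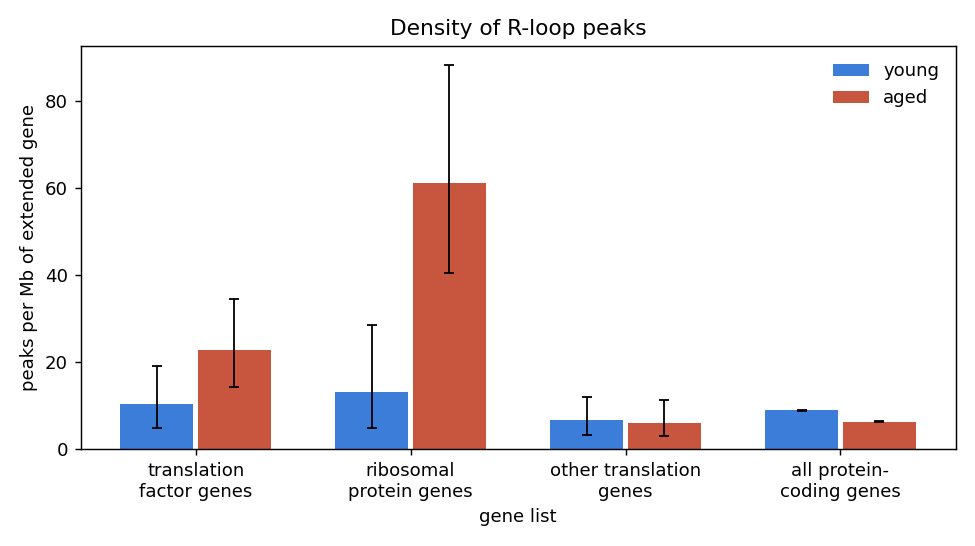
Peaks per Mb of gene extended by 1 kb, in young (blue) and aged (red) lists, for the 39 translation factor genes, 82 ribosomal protein genes, 49 other translation genes and 21887 protein-coding genes. Bars start at 0 and error bars are exact 95% Poisson intervals. The aged bar of the factor genes stands at 22.9 and that of all protein-coding genes at 6.29.

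The ribosomal protein genes, which encode the proteins of the ribosome, had 61.1 aged peaks per Mb (40.6 to 88.3) and 13.1 young ones (4.80 to 28.5). A second list of 49 translation genes held eIF2 kinases, cap-binding inhibitors, termination, recycling and mitochondrial factors. It also held further initiation and elongation factor genes and relatives of the 39, such as Eif2s3x, Eif2b4, Eif3j1, Eif4e2, Eef1a2 and Eif5a2. The 2 lists thus do not separate core factors from regulators. In the second list 9 genes carried aged peaks, 18.4%, beside 20.0% of all protein-coding genes, and 8 carried young peaks, 16.3%, beside 23.8%. Per Mb there were 6.10 aged peaks (2.92 to 11.2) and 6.71 young ones (3.35 to 12). That aged density lay close to the level of all protein-coding genes and below that of the 39 factor genes. Both lists were chosen with earlier results of these data known, and the difference between them was not tested. The highest fold on this second list was 9.85 at Eif4ebp2, an eIF4E inhibitor gene, in aged with 16 reads. Eif2a, an alternative initiation factor gene, had aged peaks on both strands with folds of 9.45 and 7.98. Its 2 young peaks both had a fold of 6.03. The eIF2 kinase gene Eif2ak4 had 7.12 in young and 4.14 in aged, and Paip1, a poly(A)-binding protein partner, had 7.11 in aged only. Eefsec, the selenocysteine elongation factor gene, had 6.03 in young and 3.55 in aged. Among the others Hbs1l, a ribosome rescue gene (5.92), and Mcts1 (4.73) had an aged peak only, and Eif4ebp1 (5.49), Larp1 (5.49) and Mtrf1l (5.48) a young peak only.

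**Figure D2:**
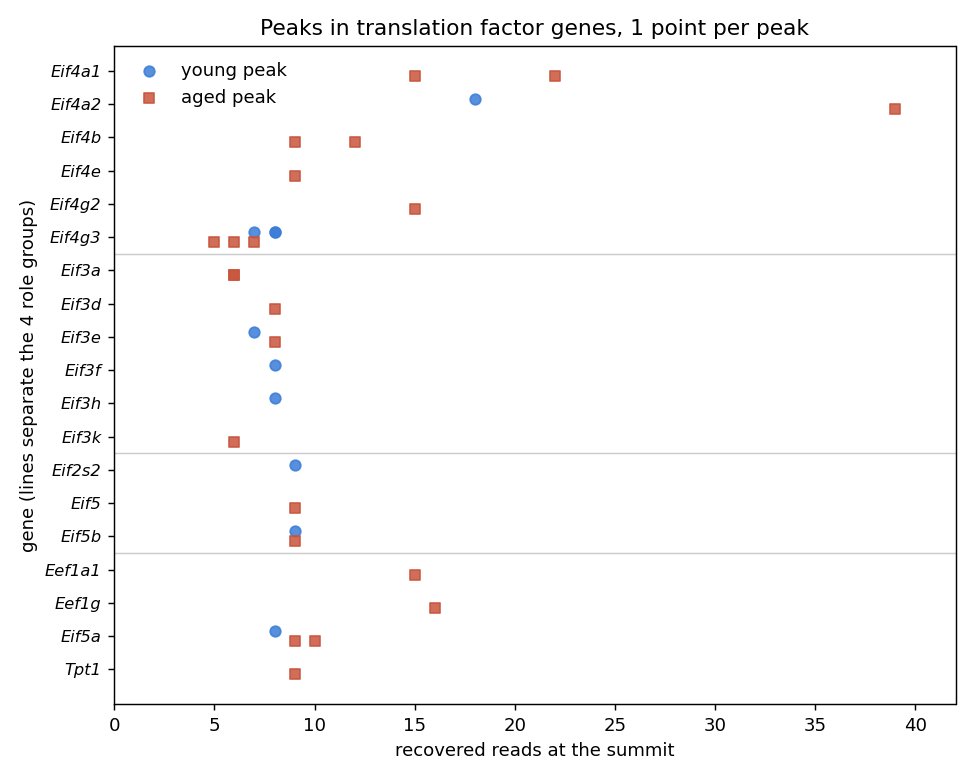
Recovered reads at the summit of each of the 32 peaks in translation factor genes, by gene and age (blue circles young, red squares aged), with lines between the 4 role groups. The aged peak of Eif4a2 stands at 39 reads, and most peaks lie between 5 and 10; 2 young Eif4g3 peaks and 2 aged Eif3a peaks share a position.

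The cap and helicase factors held the peaks with the most reads, at Eif4a2 and Eif4a1. By fold, the aged peaks next after that of Eif4a2 lay in the elongation genes Eef1a1 (9.47) and Eef1g (8.50). Of the 10 cap and helicase genes 6 carried aged peaks, 60.0%, beside 20.0% of all protein-coding genes. Young peaks lay in 2, 20.0%, beside 23.8%. Eif4a2 encodes a form of eIF4A, the helicase that unwinds the 5′ end of an mRNA. It had a forward-strand peak in both ages, with 18 summit reads (exact Poisson interval 10.7 to 28.4) in young and 39 (27.7 to 53.3) in aged. Both stood over a local background of 1.0 reads, so the folds were 9.50 and 20.0, and the −log10 q-values 12.8 and 43.7. The aged peak spanned chr16:23108184-23108646 and the young peak chr16:23108392-23108646, ending at the same base. Aged reads were 2.17 times young reads with no scaling for depth. Without replicates this ratio has no test.

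Eif4a1 encodes the more widely expressed form of the same helicase. It had 2 aged peaks and none in young. One spanned 1061 bp (chr11:69670536-69671596) with 22 reads over a background of 2.0 and a fold of 7.67, and the other (chr11:69672061-69672295) had 15 reads, a background of 2.50 and a fold of 4.57. Their summits lay 917 and 199 bp after the start. The local background at both was above the genome level.

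Eif4b encodes a cofactor of the helicase. It had an aged peak 300 bp after its start (chr15:102073971-102074289, 12 reads, fold 7.54) and another 15107 bp after it with 9 reads and a fold of 5.92. Eif4e encodes the protein that binds the mRNA cap. Its aged peak (chr3:138527790-138528132, 9 reads, fold 5.92) lay 640 bp after the second of its annotated starts. Eif4g2, a relative of the scaffold eIF4G that works without the cap protein, had an aged peak of 15 reads over 2.50, with a fold of 4.57. None of these 3 genes had a young peak.

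Eif4g3, a scaffold gene of 215 kb and the longest of the 39, had 3 peaks in each age. Young summits held 7, 8 and 8 reads with folds of 4.0 to 4.94, and aged summits 6, 5 and 7 reads with folds of 3.5 to 4.74. At 1 site, with summits 817 bp (young) and 726 bp (aged) before the far bound of the gene, peaks of both ages began at the same base, chr4:138206212. Reads at that site were 8 (3.45 to 15.8) in young and 7 (2.81 to 14.4) in aged. Over the genome background of each age they were 9.72 and 10.2. Such wide intervals cannot tell whether the ages differ there, and no test was possible. Eif4a3, the helicase of the exon junction complex, Eif4g1, Eif4h and the poly(A)-binding protein gene Pabpc1 had no peak in either age.

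The elongation and related factor genes had aged peaks in 4 of 8 (Wilson interval 21.5% to 78.5%), beside 20.0% of all protein-coding genes. A young peak lay in 1 of 8 (2.24% to 47.1%), beside 23.8%, a share inside that interval. Eef1a1 encodes the factor that brings aminoacyl-tRNA to the ribosome and is among the most abundantly transcribed genes of most cells. Its aged peak (chr9:78481139-78481550) had 15 reads (8.40 to 24.7) over the genome background, a fold of 9.47 and a −log10 q of 11.9, and lay 456 bp after the start. Eef1g, a subunit of the exchange complex that reloads this factor, had an aged peak of 16 reads (9.15 to 26.0), fold 8.50 and −log10 q 10.8 (chr19:8967526-8968001), 556 bp inside a gene bound. Neither had a young peak. These were the only members besides Eif4a2, Eif4a1 and Eif4b with a −log10 q of at least 5 in aged cells, and Eif4a2 was the only one in young.

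Eif5a encodes the hypusine-carrying factor that helps ribosomes past difficult stretches. Its 2 aged peaks had 10 reads with a fold of 3.79 at the start region and 9 reads with a fold of 5.92 some 290 bp beyond the far bound, at a place inside the neighbouring gene Gps2. Its young peak had 8 reads and a fold of 4.50, and lay 249 bp before an annotated start, at another site than the aged peaks. Tpt1, which encodes the growth-related protein TCTP, had an aged peak of 9 reads and fold 4.0, 588 bp beyond its far bound. These were the only 2 of the 32 peaks outside the gene bounds proper. Eef1b2, Eef1d, Eef2, the translocase gene, and Eif6 had no peak.

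The eIF3 genes, whose products form the large platform that binds the small ribosomal subunit, had small peaks. An aged peak lay in 4 of 12 (Wilson interval 13.8% to 60.9%), beside 20.0% of all protein-coding genes. A young peak lay in 3 of 12 (8.89% to 53.2%), beside 23.8%. Each interval covers the share of all protein-coding genes. Eif3a, the largest subunit, had 2 aged peaks of 6 reads each with folds of 4.14, and Eif3k had 1 of the same size. Eif3d had an aged peak of 8 reads and fold 5.22. Eif3e had overlapping peaks in both ages near 1 bound of the gene. The young peak (chr15:43250454-43250749) had 7 reads (2.81 to 14.4) and a fold of 4.38. The aged peak (chr15:43250635-43250858) had 8 reads (3.45 to 15.8) and a fold of 5.33. Reads over the genome background of each age were 8.48 in young and 11.6 in aged. These counts are too small to tell whether the ages differ. Eif3f and Eif3h had a young peak only, of 8 reads each, with folds of 3.60 and 4.50. Eif3b, Eif3c, Eif3g, Eif3i, Eif3l and Eif3m had none.

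Of the 9 genes for start codon recognition, eIF2 and subunit joining, 2 carried aged and 2 young peaks. Either share, 22.2%, lay close to that of all protein-coding genes, 20.0% in aged and 23.8% in young. Eif5, which stimulates GTP hydrolysis by eIF2, had an aged peak of 9 reads and fold 5.51, 715 bp after its start (chr12:111538716-111539044). Eif5b, which joins the ribosomal subunits, had 9 reads in both ages, with folds of 4.0 in young and 5.92 in aged, at sites far apart. Eif2s2, the beta subunit of eIF2, had a young peak of 9 reads and fold 5.49. Eif1, Eif1b, Eif2s1, Eif2b1, Eif2b2 and Eif2b3 had none, so in all 20 of the 39 genes carried no peak.

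Most of these peaks rested on few reads. Among the aged peaks 8 of 22 had at least 10 reads, 36.4%, beside 29.2% of aged peaks in all protein-coding genes, and in young 1 of 10 did, beside 28.8%. At that minimum, chosen after the data were seen, 7 factor genes had an aged peak, beside 7.09% of protein-coding genes, and 1 had a young peak, beside 9.32%. The faintest young peaks over the genome background had 6 reads and the faintest aged ones 5. All 11 genes with an aged peak only had a summit of at least 6 reads in aged. This count says little, because aged peaks begin at 5 reads and the young minimum holds over the genome background only. Some of these genes, such as Eif4a1 and Eif4g2, had a raised local background. Whether such summits would have been called in young was not tested. Peaks of both ages overlapped at 3 sites, in Eif4a2, Eif4g3 and Eif3e, which makes 3 of 10 young and 3 of 22 aged peaks, beside 6.95% and 9.80% in protein-coding genes.

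The second question was where along the gene, and on which strand, the peaks lay. The promoter table gave start and strand for 30 of the 39 genes. Eef1d, Eef1g, Eif2b3, Eif3e, Eif3h, Eif3i, Eif4g2, Eif6 and Pabpc1 had no entry. In aged cells 6 of these 30 genes, 20.0%, had a summit within 1 kb of an annotated start, beside 2.06% of 17492 protein-coding genes with one. They were Eif4a1, Eif4b, Eif4e, Eif5, Eef1a1 and Eif5a. In young cells 2 did, Eif4a2 and Eif5a, beside 2.44%. The aged summit of Eif4a2 lay just outside, 1045 bp after the start, where its young summit lay at 959 bp. At a −log10 q of at least 5 the counts near a start were 3 genes in aged, beside 0.452% of all, and 1 in young, beside 0.309%. Over the plain genome background alone they were 2 in aged, beside 1.13%, and 0 in young, beside 1.28%. Eif5a has 6 annotated starts, so a summit near 1 of them is more likely than in a gene with a single start.

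**Figure D3:**
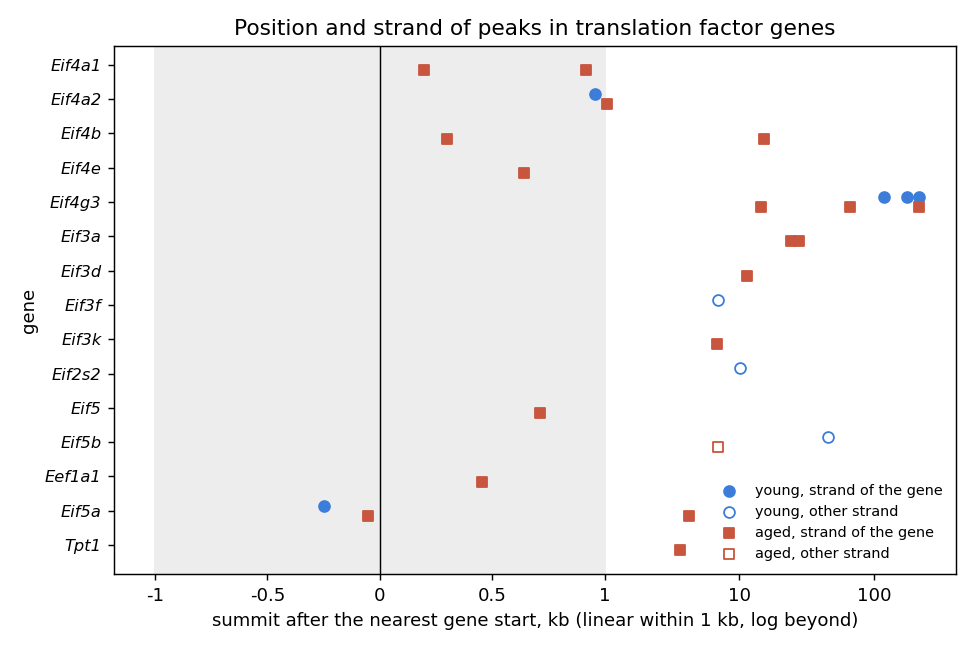
Distance of each summit from the nearest annotated start, in kb, for the 15 translation factor genes with a peak and a listed start (circles young, squares aged; the axis is linear within 1 kb, shaded, and logarithmic beyond). Filled symbols lie in the list of the gene's own strand, and the only open square is Eif5b.

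Of the aged peaks whose gene had a listed strand, all but 1 lay in the list that bears that strand. Of 10 aged peaks in genes on the plus strand 9 were in the forward list, and all 9 in genes on the minus strand were in the reverse list. That is 18 of 19, or 94.7% (Wilson interval 75.4 to 99.1), beside 54.0% (52.7 to 55.3) of aged peaks in all protein-coding genes. By gene, 12 of 13 with an aged peak had every one on their own strand, and Eif5b was the exception. In young cells 5 of 8 peaks, 62.5% (30.6 to 86.3), lay on the gene's strand, beside 47.1% (46.0 to 48.2). The 3 that did not were those of Eif3f, Eif2s2 and Eif5b, and the 5 that did were in Eif4a2, Eif4g3 and Eif5a. Peaks of 1 gene share their source, so these shares rest on fewer genes than peaks. The labels do not say which DNA strand the forward list stands for.

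**Figure D4:**
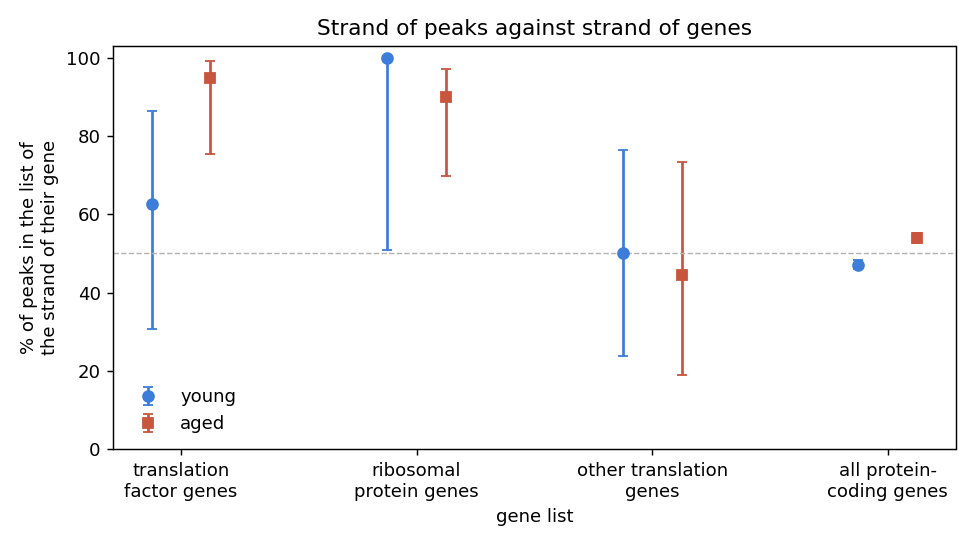
Share of peaks, in %, found in the list of the strand of their gene, for young (circles) and aged (squares) lists, with 95% Wilson intervals. A dashed line marks 50%. The aged factor genes stand at 94.7% and the aged protein-coding genes at 54.0%.

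The same count in the ribosomal protein genes was 18 of 20 aged peaks, 90.0% (69.9 to 97.2), and 4 of 4 young peaks. In the list of other translation genes 4 of 9 aged and 5 of 10 young peaks lay on the gene's strand. Across protein-coding genes the share was higher near gene starts, with 70.3% (65.1 to 75.0) of 323 aged and 60.9% (56.0 to 65.7) of 384 young summits within 1 kb of a start, counted over summits with genes of 1 strand only. Farther away it was 53.1% and 46.2%. In the factor genes aged peaks far from the start kept the gene's strand as well, in Eif3a, Eif3d, Eif3k, Eif4g3 and Eif4b, but not in Eif5b. The peaks beyond the far bounds of Eif5a (290 bp, inside Gps2) and Tpt1 (588 bp) also lay on the strand of those genes. An own-strand peak was thus found in 12 of 30 factor genes in aged, beside 13.0% of protein-coding genes with a listed strand, and in 3 of 30 in young, beside 14.1%. Within 1 kb of a start an own-strand summit was found in 6 in aged and 2 in young, beside 1.42% and 1.48%.

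None of the 32 peaks had a peak of the opposite strand of the same age within 1 kb. Such neighbours were uncommon in general, at 623 of 6886 aged and 236 of 9739 young peaks in all protein-coding genes. At 11 of 22 aged and 4 of 10 young peaks the local background was that of the genome, and at the others it was raised. In all protein-coding genes it was that of the genome at 3868 of 6886 aged and 5226 of 9739 young peaks, a similar share. Several factor genes host small nucleolar RNAs in their introns, with 16 annotated snoRNA genes in 9 of them, among them Snord2 and Snora81 in Eif4a2. No summit lay within 100 bp of a small RNA gene, and no peak overlapped one of those 16. How reads with several alignments were handled is not stated, and genes such as Eef1a1, Tpt1 and Eif4a1 have processed copies elsewhere in the genome. Their part in these peaks was not tested.

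The promoters of the factor genes were rich in G and C, with a median GC content of 62.3% over 30 genes beside 56.3% over 17492, taking the start farthest upstream for each gene. They held a median of 24 CpG sites in 300 bases, beside 13. In the first 50 transcribed bases the median GC skew was 0.06 in the factor genes and 0.07 in all genes. It was 0.15 in the 13 factor genes with an aged peak and -0.03 in the 17 without, and the ranges overlapped widely, from -0.20 to 0.33 and from -0.27 to 0.41. G outnumbered C there in 9 of the 13, in 8 of the 17 and in 58.3% of all genes. The ribosomal protein genes had a median of -0.06, with G above C in 24 of 62.

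Between 1 and 3 kb outside a factor gene lay 5 aged peaks. The nearest were 1380 bp from Eif3d (10 reads, fold 6.51, on the strand of the gene) and 1477 bp from Eif3h (9 reads, fold 5.0). The peaks 1847 bp from Eif4g1 (5 reads, fold 3.55) and 2481 bp from Eif3g (12 reads, fold 7.70) lay on the opposite strand. The peak 2695 bp from Eef1g had 6 reads and a fold of 4.14, and Eif3h and Eef1g have no listed strand. Just inside the 1 kb limit, the Tpt1 peak lay 588 bp and an Eif5a peak 290 bp from the gene. No young peak lay between 1 and 3 kb from a factor gene. With bounds extended by 3 kb, 19 of the 22 aged peaks in genes with a listed strand, 86.4%, lay on the strand of the gene, beside 54.1% in all protein-coding genes.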

How the data were processed

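Strand-specific DNA:RNA immunoprecipitation sequencing was deposited as 4 peak lists, 1 per age and strand, each combining the 2 replicates of an age. The submitters' processing notes name MACS3 3.0.0b1, Bowtie2 2.4.4, deepTools 3.5.1 and Trim Galore, with GRCm38 as the build. Settings and the use of inputs and duplicates are not stated. Each deposited line holds the authors' fold (the ratio of pileup to local background) with a −log10 q-value and a −log10 p-value from their caller. These are the authors' values, used here to describe and filter peaks.

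Reads and background were solved from fold and −log10 p, with the fold taken as pileup plus 1 over background plus 1 and p as the upper Poisson tail. All 32 peaks described matched whole reads within 0.1%. The solver and the assignment of strand were checked on simulated data. A peak was at the genome background when within 2% of the commonest value of its list. Gene bounds came from RefSeq's GRCm38.p6 table, and starts, strands and sequences from its promoter table. A summit was set against the nearest annotated start. Wilson intervals were used for shares and exact Poisson intervals for counts. No test between ages was possible without replicate values.

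Genes and lists were chosen with earlier results of these data known. Every factor gene with a peak is named with its fold. Further values, such as reads, position, background or −log10 q, are given in part for genes near a start, in both ages or among the 10 highest folds. Of the other translation genes the 10 with the highest folds are named. Alternatives covered peak strength, list length, merging, strand, background and gene windows. The work was done in Python 3.11.15 with scipy 1.17.1, pandas 2.3.3, numpy 2.4.6 and, for plots, matplotlib 3.10.9.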

Additional observations from a re-analysis of the deposited data

How the results depend on the processing

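No paired analysis was possible because the lists combine the replicates, which also prevented leaving any replicate out. Aged counts of genes and peaks stayed above the young ones in every alternative run. Of 130 alternative values 85 stayed, with counts and densities within 1.5 times the main value and strand shares within the main interval. Lists of equal length, merging within 500 bp, dropping peaks with an other-strand neighbour, dropping peaks at small RNA genes and both other gene bounds moved none. A start window of 2 kb gave 7 genes with an aged summit, beside 2.93% of all protein-coding genes with a listed start, and 2 with a young one, beside 3.43%. Values moved further under the stricter criteria for a peak and the narrower start window given below.

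Shares and densities in brackets are those of all protein-coding genes. At a −log10 q of at least 5, 5 aged peaks, 5.20 per Mb (1.34), lay in 5 genes (5.39%), 4 of them with an aged peak only (4.10%) and 3 near a start (0.452%). The 1 young peak, 1.04 per Mb (1.10), lay in 1 gene (4.51%) with peaks in both ages (1.29%), near its start (0.309%), and 0 genes had a young peak only (3.23%). All stranded peaks, 100%, were then on the gene's strand, 4 of 4 aged (54.7%) and 1 of 1 young (46.7%). With at least 10 reads, added after seeing the data, 8 aged peaks, 8.31 per Mb (1.84), lay in 7 genes (7.09%), 6 of them aged only (4.56%). Again 1 young peak, 1.04 per Mb (2.56), lay in 1 gene (9.32%), in both ages (2.53%) and near its start (0.652%), with 0 young only (6.79%) and 100% on the gene's strand in aged (54.4%) and young (47.6%).

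A fold of at least 5 left 12 aged peaks, 12.5 per Mb (2.43), in 11 genes (9.33%), 10 of them aged only (6.06%). It left 2 young peaks, 2.08 per Mb (2.91), in 2 genes (10.6%), with 1 gene in both ages (3.28%), 1 young only (7.36%) and 1 with a young summit near its start (0.657%). Peaks over the genome background alone were 11 aged, 11.4 per Mb (3.53), in 9 genes (13.5%), 7 aged only (7.81%) and 2 near a start (1.13%), and 4 young, 4.16 per Mb (4.78), in 3 genes (15.8%), 1 young only (10.2%), 2 in both ages (5.66%) and 0 near a start (1.28%). A start window of 500 bp left 1 gene with a young summit (1.15%). In all 4 lists the median peak held 8 reads, so each peak carries a wide counting interval.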
